A study of Mus musculus with 105 samples.

Results

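The genes described here are 35 listed genes of the cell cycle, chosen by name for their roles in entry into the cycle, DNA replication and mitosis. The deposited table held 33 of them among its 12966 genes, and Bub1 and Cks2 were not in it. Their levels were followed after treatment of mice with diethylnitrosamine (DEN), which damages DNA in hepatocytes and produces liver tumours. All 105 libraries came from DEN-treated mice, so no untreated liver enters any comparison. Sample titles begin with grp1 or grp2, called sequencing groups 1 and 2 here as a name only. The titles do not say what the prefix stands for, so the split need not be one of sequencing. Sequencing group 1 held the genotypes labelled Ikk KO (IKO), Shp2 KO (SKO, gene Ptpn11) and WT with 4 libraries per group, and sequencing group 2 held beta catenin KO (BKO, gene Ctnnb1), cMet KO (MKO, gene Met) and a WT set of its own with 3 libraries per group. Non-tumour liver was taken at 1, 3, 5 and 8 months, and tumours (T) were taken at 8 months beside the non-tumour liver (NT). The title of the study places each loss in hepatocytes, while the labels name neither the Cre driver nor the age at treatment and do not tie tumours to mice.

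In background, a cell leaves rest when growth signals raise D-type cyclins, which with their kinases release E2F factors to switch on the replication genes. The genes of mitosis follow later in the cycle under B-MYB and FOXM1, and both waves are held down in resting cells by the DREAM complex. Hepatocytes of the adult liver divide rarely, so these genes are normally low there and come up after injury, after loss of liver mass and in tumours. Ccnd1 is the exception, since it is also under control of growth factors and nutrients in hepatocytes that are not dividing.

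Promoters are shown first, because many members share letters there that the choice by name did not use. RefSeq promoters (build GRCm38.p6) were at hand for 27 of the 35 listed genes, and 250 bases before each start were searched on both strands. The CCAAT box, bound by NF-Y, was found in 23 of 27 members (85.2%), against 36.3% of the 10178 genes of the table with a promoter. A cell cycle homology region (CHR, letters TTTGAA or TTCGAA), where DREAM and B-MYB complexes bind, was found in 10 of 27 (37.0%), against 12.3% of genes of the table. E2F letters were found in 8 of 27 (29.6%), against 13.7% of genes of the table, where a match was TTCCCGC, or else the variant TTGGCGC, or else the variant TTCGCGC, or else the variant TTGCCGC. All 10 members with a CHR also held a CCAAT box, a pair that 4.70% of genes of the table held. By role, E2F letters stood before 5 of 11 genes of G1, replication and nucleotide supply and before 3 of 16 mitotic genes, while a CHR stood before 3 of 11 and 7 of 16. Below are the 150 bases before the start, 5′ to 3′ on the gene's strand, with every match to these letters in capitals, and adjoining E2F matches can overlap. Top2a, Cdk1 and Ube2c are mitotic genes that were called in many comparisons below, Mcm5 and Mcm6 are replication genes that were called higher in tumours of the 3 genotypes of group 1 and of none in group 2, and Pcna is a replication gene that was not called in tumours of any genotype.
Top2a (chr11:99024190-99024339, minus strand): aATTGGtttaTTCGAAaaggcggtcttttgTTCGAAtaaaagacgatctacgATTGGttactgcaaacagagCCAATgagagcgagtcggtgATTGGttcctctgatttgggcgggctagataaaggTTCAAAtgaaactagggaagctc
Cdk1 (chr10:69352913-69353062, minus strand): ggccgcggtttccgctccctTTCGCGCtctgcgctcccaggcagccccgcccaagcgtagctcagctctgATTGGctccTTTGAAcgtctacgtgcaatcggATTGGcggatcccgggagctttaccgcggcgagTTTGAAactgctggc
Ube2c (chr2:164769779-164769928, plus strand): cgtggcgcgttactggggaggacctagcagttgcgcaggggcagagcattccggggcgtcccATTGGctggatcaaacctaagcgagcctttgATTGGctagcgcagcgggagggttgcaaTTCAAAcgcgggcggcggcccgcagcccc
Mcm5 (chr8:75109359-75109508, plus strand): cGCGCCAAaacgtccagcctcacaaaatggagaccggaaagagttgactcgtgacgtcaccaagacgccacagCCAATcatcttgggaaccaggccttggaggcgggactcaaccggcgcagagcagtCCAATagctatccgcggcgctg
Mcm6 (chr1:128359706-128359855, minus strand): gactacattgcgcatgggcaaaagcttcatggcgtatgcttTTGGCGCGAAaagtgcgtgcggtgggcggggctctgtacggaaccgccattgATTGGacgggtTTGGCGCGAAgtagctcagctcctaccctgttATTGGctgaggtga
Pcna (chr2:132253181-132253330, minus strand): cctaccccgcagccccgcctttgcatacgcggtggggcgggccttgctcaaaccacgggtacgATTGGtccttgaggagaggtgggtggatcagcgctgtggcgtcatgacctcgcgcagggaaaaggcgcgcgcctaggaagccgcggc
The stretch before Top2a held 4 CCAAT boxes and 3 CHR letters, the one before Cdk1 held 2 of each and 1 match to E2F letters, and the one before Ube2c held 2 CCAAT boxes and 1 CHR. The Mcm6 stretch held 4 matches to E2F letters, and the Pcna stretch held a single CCAAT box and none of the other letters. A match describes letters and is not evidence that a factor binds there.

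Levels below are normalised reads, that is reads divided by the size factor of the library, and differences are on the deposited log2 scale with their standard error. That scale compresses low values, so a log2 difference of a weak gene is smaller than the ratio of its reads. Reads over the table ran from 4676444 to 10863046 per library in group 1 and from 6650086 to 20231121 in group 2. Members were weakly covered, with a median under 30 reads for 26 of 33 in group 1 and 23 of 33 in group 2. Stmn1, a microtubule-destabilising protein, had 0 reads in 58 of the 60 libraries of group 1 and is described in group 2 only. Tests were done with limma over all 12966 genes, and called means that the adjusted p was under 0.05. In SKO liver outside tumours Ptpn11 fell by 1.12 ± 0.09 (adjusted p = 2.3e-13), but the library labelled SKO 3-month replicate 2 had 375 normalised reads of it, against 350.1 to 388 in WT at that age. Counts of called members in SKO are therefore given with and without that library, while log2 differences and marker counts include it. Ikbkb fell by 0.32 ± 0.07 in IKO non-tumour liver (adjusted p = 0.00386) but not at 3 months, where IKO libraries had 332 to 374 and WT libraries 275 to 478. At 8 months IKO (248.9 to 382.7) overlapped WT (322.7 to 414). At 1 month Ikbkb was also low in SKO, at 208.4 to 271.3, against 296.1 to 427.3 in WT. Met fell by 0.31 ± 0.07 in MKO (adjusted p = 0.0117) but not at 3 months, where the mean was 223.1 in MKO and 224.3 in WT. It was also low in BKO at 5 months, at 154.3 to 230.9, against 253.6 to 271.7 in WT. Ctnnb1 differed by -0.01 ± 0.07 (adjusted p = 0.926) in BKO, so that this gene does not check the BKO label here.

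Most members were called higher in WT tumours than in WT non-tumour liver, and fewer were called in the knockouts. In WT tumours 22 of 33 members were called higher and 0 lower in group 1, where 22.0% of all genes were called higher and 18.8% lower. The WT set of group 2 had again 22 higher and 0 lower, against 10.4% and 7.71% of all genes. SKO tumours had 18 members higher and 1 lower (background 20.1% and 18.1%), and IKO tumours 10 higher and 1 lower (background 17.1% and 14.1%). BKO and MKO tumours had 1 member each called higher and 0 lower, with backgrounds of 2.78% higher and 1.47% lower in BKO and 3.85% higher and 2.38% lower in MKO, so both shares were near the background. The median log2 difference over the 33 members was 0.37 in IKO, 0.49 in SKO, 0.89 in WT of group 1, 0.39 in BKO, 0.32 in MKO and 0.93 in WT of group 2, while the median over all genes lay between 0.01 and 0.04. Because these are bulk samples, more cells in cycle and more RNA per cell cannot be told apart.

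**Figure D1:**
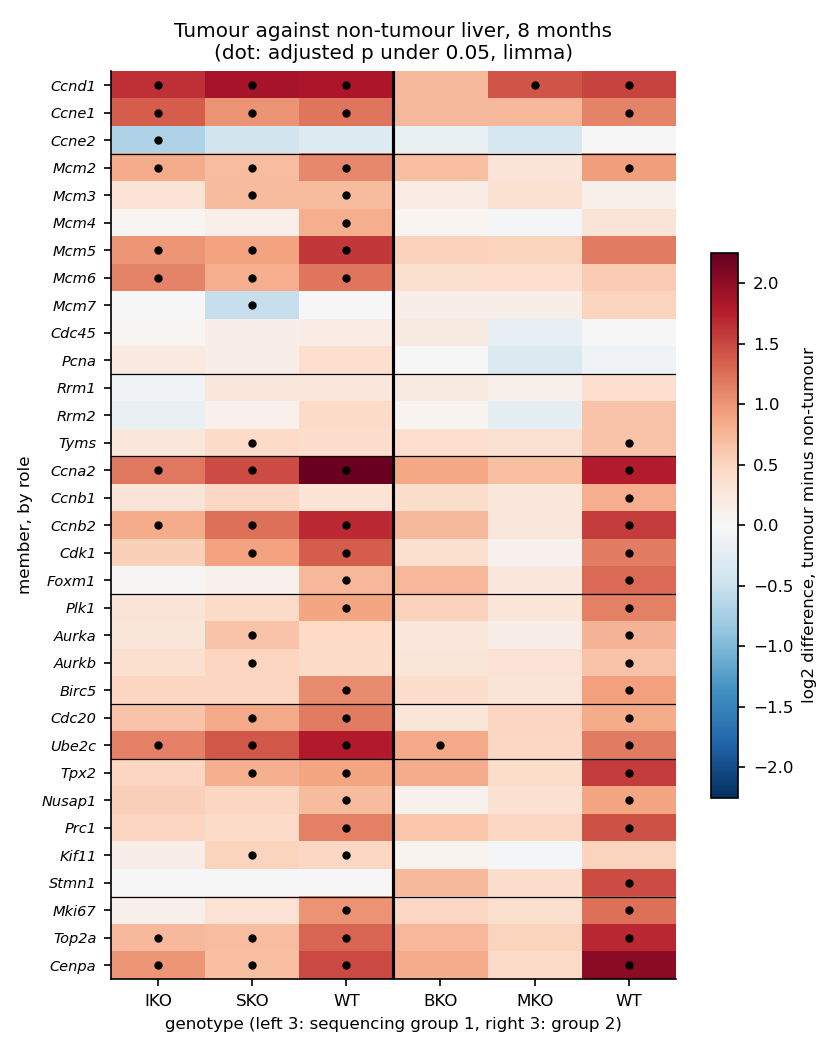
Log2 difference of each measured member (rows, ordered by role) between tumours and liver without tumour, both at 8 months, by genotype (columns), with a dot where the adjusted p was below 0.05. The WT columns carry 22 dots each, the SKO column 19, the IKO column 11, and the BKO and MKO columns 1 each.

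Among the cyclins of G1, Ccnd1, the D-type cyclin that links growth signals to the cycle, was called higher in tumours of every genotype but BKO. It had 942, 1148, 947 and 1124 normalised reads in IKO tumours, against 340.5, 284, 189 and 503 in IKO non-tumour liver. In SKO tumours it had 1181, 1161, 758 and 2204, against 341, 217, 247 and 570.5 in SKO non-tumour liver. WT tumours of group 1 had 952, 1188, 1339 and 973, against 312, 138, 403 and 405 in WT non-tumour liver. All 12 tumours of group 1 lay above every non-tumour liver of their own genotype, with log2 differences of 1.65 ± 0.32 (adjusted p = 0.000386) in IKO, 1.85 ± 0.32 (adjusted p = 6.62e-05) in SKO and 1.82 ± 0.32 (adjusted p = 6.84e-05) in WT. In group 2, Ccnd1 had 805, 914 and 901 in BKO tumours, against 763, 472 and 375 in BKO non-tumour liver. MKO tumours had 643, 767 and 846, against 183, 527 and 186 in MKO non-tumour liver. WT tumours had 733, 813 and 1002, against 302, 161 and 423 in WT non-tumour liver. Tumour and non-tumour libraries did not overlap in any of these 3 genotypes, but the difference was called in MKO at 1.41 ± 0.35 (adjusted p = 0.0342) and in WT at 1.52 ± 0.35 (adjusted p = 0.00803), and not in BKO at 0.73 ± 0.35 (adjusted p = 0.23). The difference between the BKO and WT tumour effects on Ccnd1 was itself not called, at -0.79 ± 0.50 (adjusted p = 1). Ccne1, the cyclin that drives entry into S phase, rose by 1.36 ± 0.22 (adjusted p = 9.45e-05) in IKO and by 1.003 ± 0.22 (adjusted p = 0.00104) in SKO tumours. Ccne2, named after its values were seen, was the member called lower in IKO tumours, where it was listed at 0 reads in all 4 libraries.

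Replication genes split into members that rose and members that did not pass the test. Of the 8 genes of licensing and the fork, 5 were called higher in WT tumours of group 1 and 1 in WT of group 2, 4 in SKO, 3 in IKO, and 0 in BKO and MKO. Mcm5, a subunit of the MCM helicase that licenses origins, had 80.1, 78.2, 50.3 and 35.4 normalised reads in IKO tumours, against 19.9, 9.96, 17.7 and 31.5 in IKO non-tumour liver. SKO tumours had 43.1, 39.4, 65.9 and 84.7 of Mcm5, against 19.8, 18.7, 15.4 and 28.2 in SKO non-tumour liver. WT tumours of group 1 had 64.4, 152, 122 and 50.7, against 20.2, 18.3, 8.04 and 17.4 in WT non-tumour liver. Tumours and non-tumour liver did not overlap in these 3 genotypes, and the differences were 0.995 ± 0.24 (adjusted p = 0.00327) in IKO, 0.90 ± 0.24 (adjusted p = 0.00521) in SKO and 1.59 ± 0.24 (adjusted p = 1.62e-05) in WT. The 3 WT tumours of group 2 had 28.9, 105 and 298, against 34.3, 47.1 and 21.9 in WT non-tumour liver, where replicate 1 lay within the non-tumour range and the difference was not called, at 1.18 ± 0.42 (adjusted p = 0.0625). Pcna, the sliding clamp, Cdc45, a helicase cofactor, and Rrm1 and Rrm2, the subunits of ribonucleotide reductase, were named after their values were seen because none of them was called in tumours of any genotype. Their log2 differences in WT tumours of group 1 were 0.37 ± 0.18 (adjusted p = 0.108) for Pcna, 0.17 ± 0.20 (adjusted p = 0.525) for Cdc45, 0.23 ± 0.17 (adjusted p = 0.295) for Rrm1 and 0.43 ± 0.22 (adjusted p = 0.117) for Rrm2. Mcm7, another helicase subunit named after its values were seen, was the member called lower in SKO tumours, at -0.53 ± 0.17 (adjusted p = 0.0196).

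Of the 5 measured genes of mitotic entry, 4 were called higher in WT tumours of group 1, 5 in WT of group 2, 3 in SKO, 2 in IKO and 0 in BKO and MKO. In IKO, 0 of the 4 mitotic kinases and regulators and 0 of the 5 spindle genes were called. Ccna2, the cyclin of S phase and mitotic entry, had 173, 194, 236 and 121 normalised reads in WT tumours of group 1, against 11.7, 23.1, 12.1 and 40.2 in WT non-tumour liver. The WT tumours of group 2 had 52.0, 86.4 and 116 of Ccna2, against 10.9, 7.99 and 10.1 in non-tumour liver. Neither pair of groups overlapped, and the differences were 2.22 ± 0.23 (adjusted p = 1.68e-07) and 1.77 ± 0.29 (adjusted p = 0.00132). The rise of Ccna2 was 1.19 ± 0.23 (adjusted p = 0.000469) in IKO and 1.48 ± 0.23 (adjusted p = 2.6e-05) in SKO. Ccnb2, a B-type cyclin of mitosis, rose by 1.68 ± 0.19 (adjusted p = 5.26e-07) in WT of group 1, 1.57 ± 0.27 (adjusted p = 0.00171) in WT of group 2, 1.23 ± 0.19 (adjusted p = 2.6e-05) in SKO and 0.84 ± 0.19 (adjusted p = 0.0021) in IKO.

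Cdk1, the kinase that both cyclins activate, had 31.0, 33.1, 84.3 and 64.6 normalised reads in SKO tumours, against 12.9, 14.53, 14.3 and 28.9 in SKO non-tumour liver. WT tumours of group 1 had 44.5, 85.1, 81.8 and 43.4 of Cdk1, against 7.45, 14.6, 8.04 and 18.8 in WT non-tumour liver. Neither pair overlapped, and the rises were 0.90 ± 0.23 (adjusted p = 0.00379) in SKO and 1.35 ± 0.23 (adjusted p = 6.77e-05) in WT. For Cdk1 the WT set of group 2 had 15.4, 58.4 and 66.9 in tumours, against 2.51, 12.8 and 13.5 in non-tumour liver, and replicate 1 of the tumours lay just above the non-tumour range. Plk1, the polo-like kinase of mitosis, had 29.1, 29.0, 23.6 and 20.5 in WT tumours of group 1, against 6.39, 8.53, 4.02 and 5.36 in WT non-tumour liver. For the WT set of group 2 the values of Plk1 were 15.4, 28.0 and 19.7 in tumours, against 2.51, 2.40 and 0.842 in non-tumour liver. Plk1 did not overlap in either set, and its rises were 0.89 ± 0.19 (adjusted p = 0.000674) and 1.13 ± 0.24 (adjusted p = 0.00475).

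Ube2c, the ubiquitin-conjugating enzyme of the anaphase-promoting complex (APC/C), was the member called higher in BKO tumours. It had 25.6, 14.2 and 14.0 normalised reads in BKO tumours, against 10.6, 1.55 and 0.762 in BKO non-tumour liver, and the groups did not overlap, at 0.85 ± 0.21 (adjusted p = 0.0344). In group 1, Ube2c had 25.6, 81.7, 51.7 and 39.0 in IKO tumours, against 6.11, 15.7, 8.15 and 13.9 in IKO non-tumour liver. SKO tumours had 57.9, 26.8, 72.5 and 78.5, against 6.94, 6.23, 6.61 and 20.03 in SKO non-tumour liver. WT tumours had 41.4, 90.1, 73.2 and 26.5, against 7.45, 2.44, 1.34 and 4.02 in WT non-tumour liver. None of these pairs overlapped, and the rises were 1.14 ± 0.26 (adjusted p = 0.00192) in IKO, 1.39 ± 0.26 (adjusted p = 0.000174) in SKO and 1.78 ± 0.26 (adjusted p = 9.93e-06) in WT. MKO tumours had 8.64, 11.98 and 10.4, against 3.46, 6.52 and 1.96 in MKO non-tumour liver, which did not overlap but missed the threshold, at 0.46 ± 0.21 (adjusted p = 0.188).

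Of the genes of chromosome structure, Cenpa, the histone H3 variant of centromeres, had 299, 369 and 442 normalised reads in WT tumours of group 2, against 63.7, 70.3 and 78.3 in WT non-tumour liver. In group 1 it had 342, 237, 397 and 308 in WT tumours, against 101, 52.4, 92.5 and 162 in WT non-tumour liver. Both pairs of groups were apart, at 2.02 ± 0.27 (adjusted p = 0.000364) and 1.49 ± 0.23 (adjusted p = 1.77e-05). Top2a, the topoisomerase that untangles replicated chromosomes, had 103, 151, 207 and 107 in WT tumours of group 1, against 33.0, 47.5, 33.5 and 53.6 in WT non-tumour liver. The IKO tumours had 75.3, 99.5, 124 and 65.9 of Top2a, against 48.9, 28.4, 50.3 and 53.0 in IKO non-tumour liver. Again the groups were apart, at 1.30 ± 0.23 (adjusted p = 9.02e-05) in WT and 0.73 ± 0.23 (adjusted p = 0.0191) in IKO. Mki67, which encodes the proliferation marker Ki-67, was called in both WT sets and in none of the 4 knockouts, with 26.1, 32.0, 34.7 and 32.6 in WT tumours of group 1, against 4.26, 4.87, 5.36 and 14.8 in WT non-tumour liver. In IKO it had 24.0, 19.5, 19.0 and 7.32 in tumours, against 13.7, 12.8, 14.9 and 15.1 in non-tumour liver, and the groups overlapped, at 0.11 ± 0.18 (adjusted p = 0.694). The difference between the IKO and WT tumour effects on Mki67 was -0.90 ± 0.26 (adjusted p = 0.339), so it was not called. Of the spindle genes in WT tumours of group 2, Tpx2, which activates Aurora A, rose by 1.58 ± 0.25 (adjusted p = 0.00106), Prc1, which bundles midzone microtubules, by 1.43 ± 0.25 (adjusted p = 0.00178), and Stmn1 by 1.46 ± 0.29 (adjusted p = 0.00367).

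These counts held within 1.5 times when any 1 library was left out in IKO and in both WT sets. In SKO the count was 11 without tumour replicate 3, against 19 with it. In BKO it was 11 without non-tumour replicate 1, and 0 without non-tumour replicate 2, non-tumour replicate 3, tumour replicate 1 or tumour replicate 2. BKO tumours and non-tumour livers of the same replicate number deviated together, and with that number as a block 3 members were called, namely Ube2c, Ccna2 and Tpx2. With all libraries of group 2 in 1 fit 6 members were called in BKO tumours and 2 in MKO tumours, and with only the groups compared in the fit 0 were called in each. In MKO the call of Ccnd1 was lost without non-tumour replicate 1, non-tumour replicate 3, tumour replicate 1 or tumour replicate 2. Marker genes of other cell types were called as well in WT tumours of group 1, where 22.0% of all genes were called higher and 18.8% lower. Of 8 cholangiocyte markers measured 5 were called higher there, with summed levels of 4318 to 10728 in tumours and 1429 to 2329 in non-tumour liver. Of 15 macrophage markers 2 were called higher and 4 lower there, with sums of 2909 to 4304 in tumours and 2262 to 6381 in non-tumour liver. Of 7 neutrophil markers 1 was called higher and 3 lower in WT tumours of group 1, with sums of 2504 to 16535 in tumours and 122 to 1662 in non-tumour liver. Of 10 hepatocyte markers 2 were called higher and 5 lower, with sums of 1401850 to 1850830 in tumours and 283000 to 709630 in non-tumour liver. A sum follows its most abundant genes. The neutrophil and hepatocyte sums were higher in tumours although more of their markers were called lower than higher. The macrophage counts, and the neutrophil and hepatocyte counts called higher, were near the shares of all genes. In WT of group 2, 2 cholangiocyte markers were called higher, and 1 macrophage marker was called higher and 2 lower. Of all genes 10.4% were called higher and 7.71% lower there. The part of these cell types in the result was not tested.

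No single member was called between knockout and WT tumours. Called were 0 of 33 members in each of IKO, SKO, BKO and MKO tumours against WT tumours, where 0.393%, 0.447%, 0.00771% and 0.00% of all genes were called, in that order. Limma-voom on the recovered reads also called 0 members in each. By limma, 7 members in IKO, 4 in SKO, 1 in BKO and 11 in MKO had an unadjusted p under 0.05. The log2 difference was negative for 29 of 33 members in IKO and 25 in SKO, where Stmn1 was at 0 reads in both groups, 29 in BKO and all 33 in MKO, with medians of -0.27, -0.14, -0.19 and -0.31. The medians over all genes were -0.013, -0.013, 0.004 and 0.003. The share of all genes at an unadjusted p under 0.05 was not counted, here or below. Members are not independent of each other, and each count rests on the same 3 or 4 WT tumours, which IKO shares with SKO and BKO with MKO. The values of Ccnd1 were -0.09 ± 0.24 (adjusted p = 0.918) in IKO, 0.16 ± 0.24 (adjusted p = 0.858) in SKO, 0.05 ± 0.17 (adjusted p = 0.985) in BKO and -0.17 ± 0.17 (adjusted p = 0.788) in MKO. Cenpa differed by 0.12 ± 0.22 (adjusted p = 0.861) in IKO and by -0.11 ± 0.22 (adjusted p = 0.894) in SKO, and Mcm7 by -0.34 ± 0.22 (adjusted p = 0.889) in BKO and by -0.30 ± 0.22 (adjusted p = 0.674) in MKO. The standard errors of Ccnd1, 0.24 in group 1 and 0.17 in group 2, limit what could be called. When all libraries of group 2 shared 1 fit, 2 members were called lower in MKO tumours, Ccnb2 and Rrm2. The test of whether the tumour rise itself differed from that in WT called 0 members in all 4 knockouts, by limma as by limma-voom, with 9 members in IKO, 7 in SKO, 8 in BKO and 15 in MKO at an unadjusted p under 0.05, and medians of -0.40, -0.34, -0.53 and -0.62. Over all genes that test called 0.00%, 0.00771%, 0.00% and 0.00%, with medians of -0.009, -0.019, 0.0003 and 0.007. That test also takes in the non-tumour livers at 8 months. There the difference from WT was positive for 23, 20, 27 and 29 members, and negative for 9, 12, 6 and 4, in the same order.

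Single tumours of a genotype differed from each other in the whole set of members. The summed level of the members other than Ccnd1 was 1267, 1482, 1521 and 1275 normalised reads in IKO tumours, 1224, 1011, 1795 and 1902 in SKO tumours and 1523, 2055, 2308 and 1350 in WT tumours of group 1. In group 2 it was 1702, 1423 and 1372 in BKO, 1075, 1259 and 1500 in MKO and 1270, 2023 and 2551 in WT tumours. WT tumours held both the highest sums of each set and sums inside the range of the knockout tumours. In non-tumour liver at 8 months the sums ran from 675 to 909 in IKO, 690.4 to 1075 in SKO and 588 to 803 in WT of group 1. The corresponding ranges in group 2 were 617 to 1332 in BKO, 753 to 1066 in MKO and 606 to 629.9 in WT. In BKO the highest non-tumour liver, replicate 1, lay just below the lowest tumour.

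**Figure D2:**
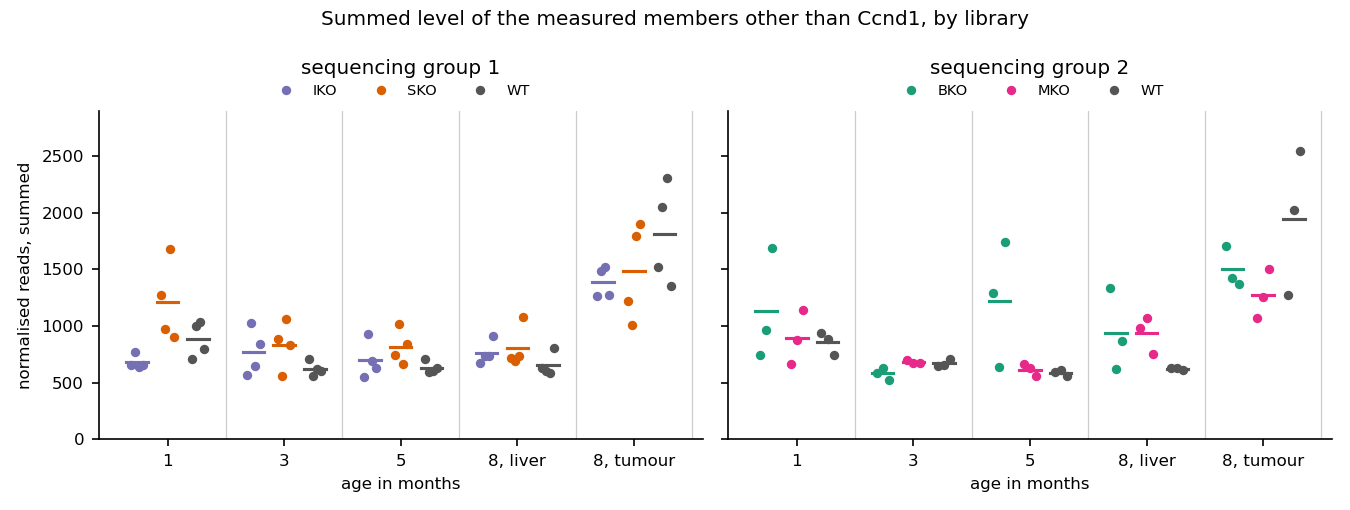
Summed normalised reads of the measured members other than Ccnd1 in every library (points) with the group mean (bar), by age and genotype, for sequencing groups 1 and 2. WT tumours span 1350 to 2308 in group 1 and 1270 to 2551 in group 2, and the BKO livers at 5 months split into 2 high libraries and 1 just above the WT livers.

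In the WT tumours of group 2 a single tumour was the lowest for nearly all members, while in the other sets the lowest place was divided. Among WT tumours of group 2, replicate 1 was the lowest of 3 for 32 of 33 members, and replicates 3 and 2 were the highest for 20 and 13. Among WT tumours of group 1, replicates 2 and 3 were the highest for 15 and 13 members, and replicates 4 and 1 the lowest for 15 and 14. In SKO, tumour 2 was the lowest for 19, while tumours 3 and 4 were the highest for 19 and 12. The lowest place fell to IKO tumour 1 for 16 members, to BKO tumours 3 and 2 for 16 and 14, and to MKO tumours 1 and 2 for 18 and 12. Members were more variable among tumours than among non-tumour livers for 19 of 33 in IKO, 20 in SKO, 17 in WT of group 1, 4 in BKO, 14 in MKO and 23 in WT of group 2, where 51.5%, 57.6%, 60.4%, 49.0%, 51.4% and 59.8% of all genes were. The median SD of a member was 0.33 on the log2 scale among WT tumours of group 1 and 0.26 among their non-tumour livers, and it was 0.19 among BKO tumours and 0.41 among BKO non-tumour livers. Mcm5 in the WT tumours of group 2 was the widest member of any group, with an SD of 1.30 on the log2 scale.

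A minority of the members were called higher in non-tumour SKO liver than in WT liver, although most differences were positive. Averaged over the 4 stages, the difference was positive for 29 of 33 members and negative for 4. The median was 0.23, against 0.01 over all genes, and members are not independent of each other. Over the 4 non-tumour stages 12 of 33 members were called higher in SKO and 0 lower, where 12.6% of all genes were called higher and 11.3% lower. They were mostly mitotic genes: 3 of 5 genes of mitotic entry, 2 of 4 mitotic kinases and regulators, both APC/C genes, 1 of 5 spindle genes and 2 of 3 chromosome genes, beside 2 of 8 replication genes and 0 of 3 genes each of G1 and nucleotide supply. Ube2c rose by 0.61 ± 0.12 (adjusted p = 0.000164), Cdk1 by 0.51 ± 0.12 (adjusted p = 0.00188), Ccna2 by 0.54 ± 0.14 (adjusted p = 0.00409) and Prc1 by 0.54 ± 0.15 (adjusted p = 0.00558). Foxm1, the transcription factor of mitotic genes, rose by 0.37 ± 0.10 (adjusted p = 0.0073), Mcm6 by 0.38 ± 0.11 (adjusted p = 0.00774), Top2a by 0.45 ± 0.13 (adjusted p = 0.00987) and Cdc20, the activator of the APC/C, by 0.42 ± 0.13 (adjusted p = 0.0139). Mcm5, Mki67, Plk1 and Birc5 were also called, with rises of 0.26 to 0.41.

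Library by library, Ube2c had 52.3, 18.6, 62.0 and 17.0 normalised reads in SKO at 1 month, against 7.92, 12.7, 18.9 and 9.86 in WT. At 3 months it had 23.5, 5.50, 24.6 and 22.1 in SKO, against 5.63, 2.299, 12.6 and 4.22 in WT. At 5 months SKO had 18.9, 22.3, 10.7 and 16.9, against 6.85, 5.74, 4.02 and 5.98 in WT. The SKO libraries lay above all WT libraries at 5 months and overlapped them at 1 and 3 months, where the low SKO library at 3 months was replicate 2. For Top2a the values were 72.5, 17.9, 85.0 and 69.5 in SKO at 3 months, against 46.1, 12.7, 27.6 and 28.5 in WT. At 5 months they were 32.5, 53.1, 43.8 and 60.5 in SKO, against 26.0, 31.6, 14.8 and 28.4 in WT. Top2a overlapped at 3 months through replicate 2 of SKO and was higher in every SKO library at 5 months. Cdk1 at 5 months had 37.8, 28.7, 30.8 and 23.0 in SKO, against 13.7, 11.5, 17.4 and 16.4 in WT, with no overlap. At 3 months the values of Cdk1 were 24.5, 6.87, 62.8 and 22.1 in SKO, against 13.5, 12.7, 13.8 and 18.0 in WT, with replicate 2 of SKO below all WT libraries. Mki67 at 3 months had 11.2, 8.24, 22.2 and 11.6 in SKO, against 5.63, 8.05, 1.15 and 10.6 in WT, and the groups overlapped.

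**Figure D3:**
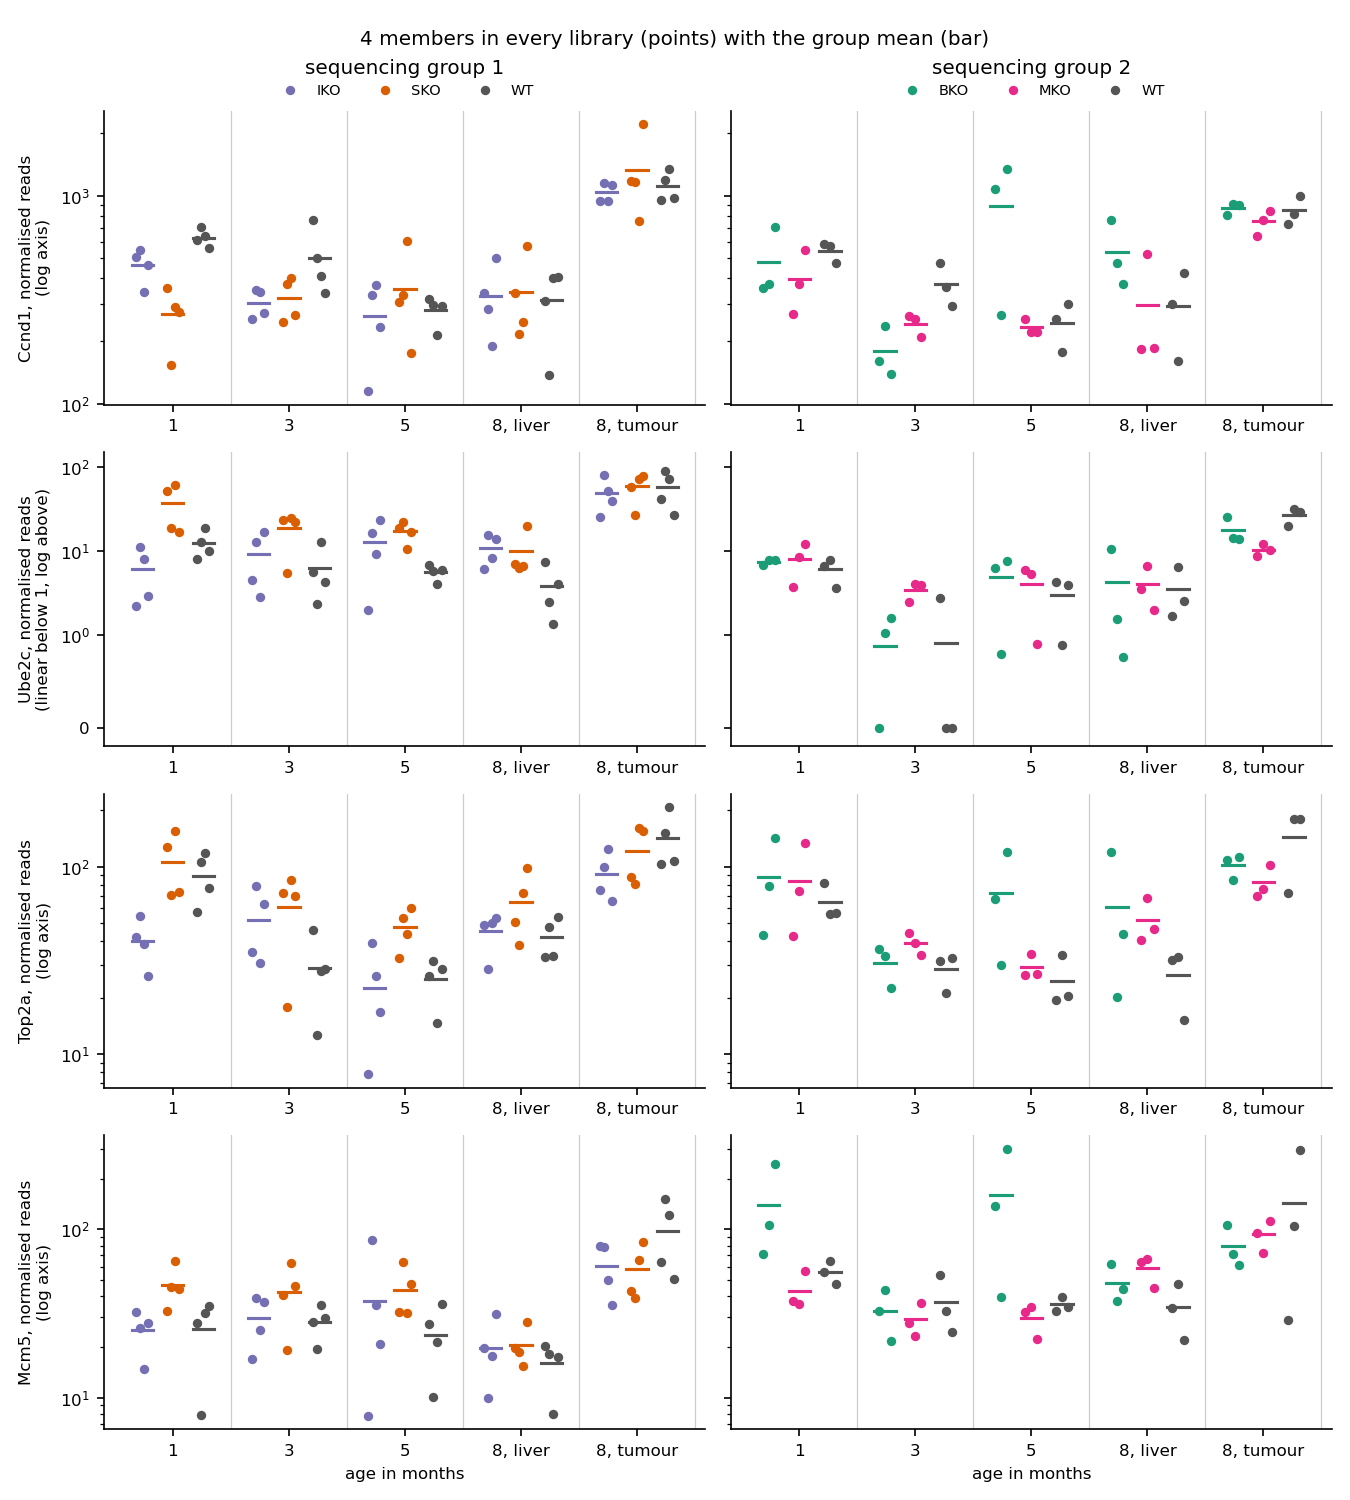
Normalised reads of Ccnd1, Ube2c, Top2a and Mcm5 in every library (points) with the group mean (bar), by age and genotype, for sequencing groups 1 and 2, on log axes except Ube2c, whose axis is linear below 1. Ccnd1 is higher in all tumours of group 1 than in non-tumour liver of the same genotype, and it is low in SKO liver at 1 month, at 154 to 359 against 558 to 707 in WT.

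The count of 12 was 13 without the library labelled SKO 3-month replicate 2, and it was 9 to 13 when any 1 library was left out. Without the 1-month stage, an alternative added after the data were seen, it fell to 5. Limma-voom on the recovered reads gave 20, but it scaled by total reads and not by size factors. Model and normalization thus changed together, and the share of all genes it called is not given. At single stages fewer members were called, with 6 at 1 month (5 higher and 1 lower, background 9.22% higher and 7.57% lower), 2 at 3 months, 1 at 5 months and 0 at 8 months, where 5.82%, 7.21% and 5.69% of all genes were called at 3, 5 and 8 months, so that these shares were near or under the background. At 8 months 3 members had an unadjusted p under 0.05 by limma, and limma-voom called 2, while limma called 1 without WT 8-month non-tumour replicate 1 or 4. No member had a called interaction between SKO and stage (0 by limma, 2 by limma-voom, 5 with an unadjusted p under 0.05 by limma, background 7.11%), and 1 was called without SKO 5-month replicate 4 or SKO 8-month non-tumour replicate 4. Macrophage markers were also higher in SKO liver, with 14 of 15 called higher over the 4 stages, and their summed level was 7048 to 9254 in SKO at 1 month and 3584 to 8155 in WT. Over the 4 stages 12.6% of all genes were called higher and 11.3% lower. Hepatocyte markers were called lower for 5 of 10, with sums of 251633 to 326970 in SKO and 645650 to 847682 in WT at 1 month, and 5 of 12 stellate cell and fibroblast markers, 3 of 8 cholangiocyte markers and 3 of 8 B and plasma cell markers were called higher. None of these markers was at 0 in every library of either group at 1 month, and their part in the result was not tested.

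At 1 month 5 members were called higher in SKO liver and Ccnd1 was called lower. The summed level of all measured members averaged 1479 normalised reads in SKO and 1514 in WT, and without Ccnd1 it averaged 1209 in SKO and 885 in WT. Ccnd1 had 359, 154, 293 and 274 normalised reads in SKO, against 613, 707, 638 and 558 in WT, so that every SKO library lay below every WT library, at -1.19 ± 0.31 (adjusted p = 0.00605). Cdk1 had 81.5, 42.5, 99.1 and 51.0 in SKO, against 23.8, 32.3, 25.9 and 18.6 in WT, again with no overlap but in the other direction, at 0.90 ± 0.25 (adjusted p = 0.00962). Cdc20 rose by 0.87 ± 0.26 (adjusted p = 0.0161), Aurka, the Aurora A kinase of spindle poles, by 0.78 ± 0.22 (adjusted p = 0.0132), Ube2c by 0.76 ± 0.24 (adjusted p = 0.0238) and Pcna by 0.38 ± 0.12 (adjusted p = 0.0294). Members called without any other 1 library of these groups numbered 4 to 6. Without SKO 1-month replicate 3, which was the highest of its group for 25 of 33 members, Ccnd1 was called lower and 0 members higher, and with only the groups compared in the fit 3 members were called. Ccnd1 also lay lower in SKO at 3 months, with 247, 375, 404 and 268 in SKO, against 762, 500.1, 413 and 340.1 in WT, but the groups overlapped, at -0.57 ± 0.31 (adjusted p = 0.31). It was not lower at 5 and 8 months, at 0.21 ± 0.31 (adjusted p = 0.754) and 0.13 ± 0.31 (adjusted p = 0.88). At 3 months Prc1 rose by 0.97 ± 0.29 (adjusted p = 0.0403) and Birc5, the survivin gene, by 0.71 ± 0.22 (adjusted p = 0.0415). These 3-month calls numbered 4 without the library labelled SKO 3-month replicate 2, 1 without WT replicate 1, and 0 without SKO replicate 1, 3 or 4 or WT replicate 2, 3 or 4. At 5 months Mcm7 rose by 0.56 ± 0.13 (adjusted p = 0.00477), whichever library of the pair of groups was left out.

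**Figure D4:**
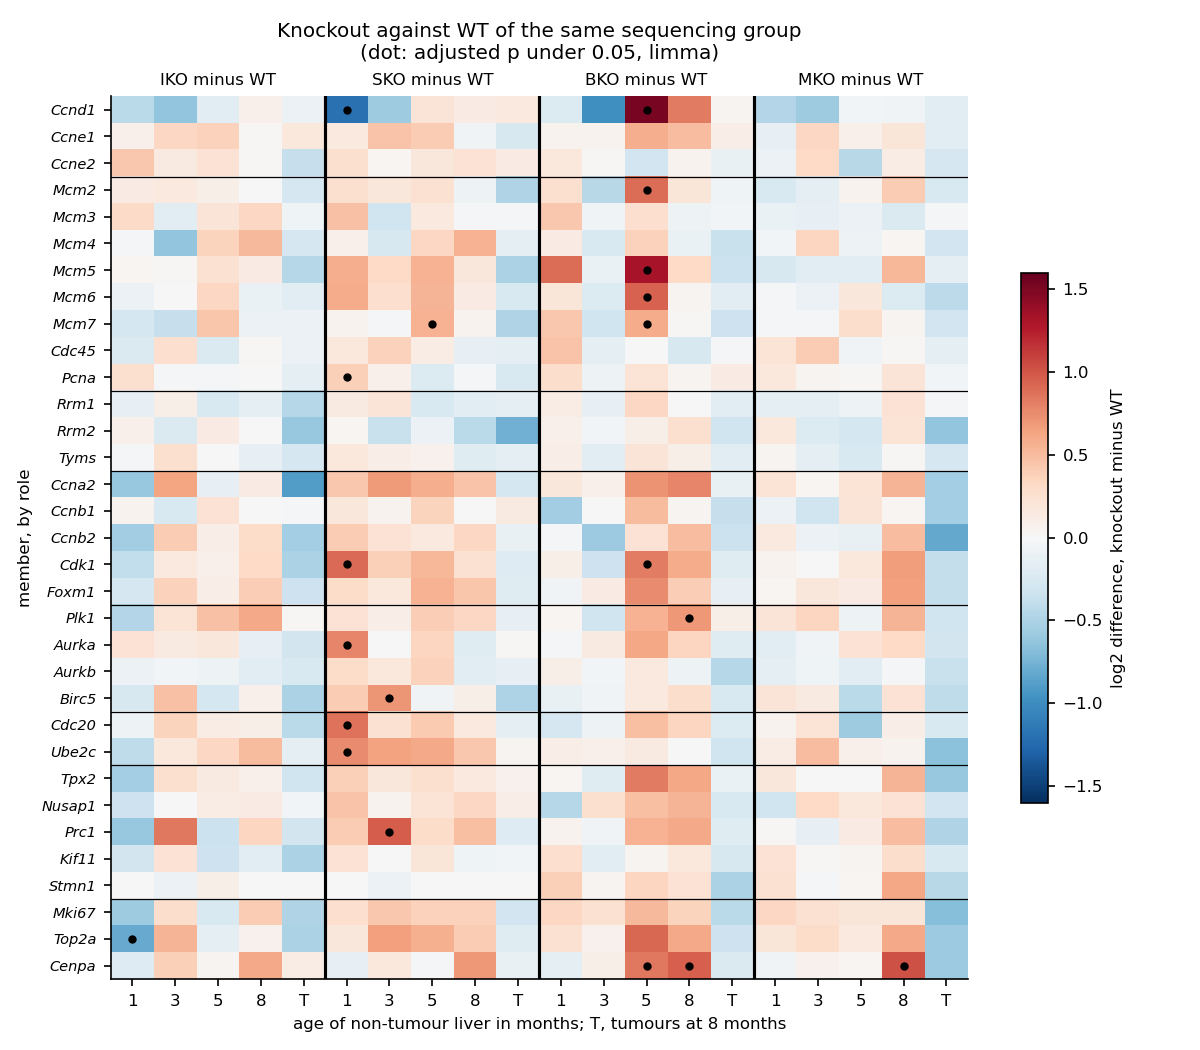
Log2 difference of each measured member (rows, ordered by role) between knockout and WT of the same sequencing group, in non-tumour liver at 1, 3, 5 and 8 months and in tumours (T), with a dot where the adjusted p was below 0.05. The BKO column at 5 months carries 7 dots and the SKO column at 1 month 6, while the 4 tumour columns carry none.

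In BKO non-tumour liver most calls came at 5 months. Over the 4 stages 5 of 33 members were called higher and 0 lower, where 12.3% of all genes were called higher and 10.3% lower, so the share was near the background. The difference was positive for 31 members and negative for 2, with a median of 0.20, against 0.01 over all genes. Mcm5 rose by 0.61 ± 0.17 (adjusted p = 0.0102), Cenpa by 0.44 ± 0.13 (adjusted p = 0.0118), Mki67 by 0.36 ± 0.11 (adjusted p = 0.015), Ccna2 by 0.44 ± 0.14 (adjusted p = 0.0185) and Top2a by 0.46 ± 0.17 (adjusted p = 0.0492). The count was 2 by limma-voom, 13 without BKO 5-month replicate 2, 8 without BKO 8-month non-tumour replicate 2, and 0 without the 5-month stage, an alternative added after the data were seen. At 5 months 7 members were called higher and 0 lower, against 5.01% higher and 4.59% lower of all genes, and 4 of them were subunits of the MCM helicase. The difference at 5 months was positive for 31 members and negative for 2, with a median of 0.505, against 0.01 over all genes. The count of 7 was 1 with only the groups compared in the fit, 4 by limma-voom and 4 with all libraries of group 2 in 1 fit. Mcm6 rose by 0.95 ± 0.24 (adjusted p = 0.0115), Mcm5 by 1.323 ± 0.34 (adjusted p = 0.0139), Mcm2 by 0.89 ± 0.29 (adjusted p = 0.0468) and Mcm7 by 0.59 ± 0.19 (adjusted p = 0.0469), with Ccnd1 at 1.52 ± 0.41 (adjusted p = 0.0164), Cenpa at 0.85 ± 0.25 (adjusted p = 0.0313) and Cdk1 at 0.82 ± 0.27 (adjusted p = 0.0475).

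The BKO livers at 5 months differed among themselves. Ccnd1 had 1078, 268 and 1344 normalised reads in BKO, against 254, 178 and 302 in WT. Mcm5 had 138, 39.4 and 302 in BKO, against 32.9, 39.8 and 34.7 in WT. Cdk1 had 37.3, 10.2 and 40.6 in BKO, against 10.1, 6.20 and 6.55 in WT. Replicates 1 and 3 of BKO were well above every WT library in these 3 genes, while replicate 2 lay within the WT range in Ccnd1 and Mcm5 and next to the highest WT library in Cdk1. Replicate 2 was the lowest of the 3 for 28 of 33 members, and replicate 3 the highest for 27. Top2a had 67.3, 29.9 and 119.6 in BKO, against 19.4, 33.6 and 20.3 in WT, again with replicate 2 in the WT range. Cenpa, with 173, 132 and 149.5 in BKO, against 75.8, 82.3 and 61.0 in WT, was above WT in all 3 livers. When 1 library was left out, the count was 13 without BKO replicate 2, 0 without BKO replicate 3, 1 without BKO replicate 1, and 1, 4 and 3 without WT replicates 1, 2 and 3. Of the interactions of BKO with stage, that of Ccnd1 was called (adjusted p = 0.047, background 1.66%) by limma, with 1 by limma-voom. At 3 months Ccnd1 had 161, 237 and 139 in BKO, against 475, 362 and 294 in WT, with BKO below WT in all 3 livers, though at -0.98 ± 0.41 (adjusted p = 0.237) the difference was not called. The call of the interaction was lost without any 1 of the BKO and WT libraries except BKO 1-month replicate 3, BKO 5-month replicate 2, the 3 BKO 8-month livers and WT 8-month replicate 3, with 5 members called without BKO 5-month replicate 2 and 2 without BKO 8-month replicate 2.

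Marker sums of other cell types moved with the 2 high BKO livers only in part. Of 12 stellate cell and fibroblast markers 8 were called higher in BKO at 5 months, with sums of 4313, 4387 and 5811 in replicates 1 to 3 of BKO and 2654 to 2836 in WT. Of all genes 5.01% were called higher there. Of 15 macrophage markers 4 were called higher, with sums of 6269, 6252 and 8755 in BKO and 3121 to 5879 in WT. In both lists replicates 1 and 2 of BKO lay close together, below replicate 3. Neutrophil marker sums were 955, 292 and 1332 in BKO and 96.9 to 218 in WT, where Mpo and Retnlg were at 0. Hepatocyte marker sums were 618494, 999388 and 626400 in BKO and 719888 to 793640 in WT. The neutrophil and hepatocyte sums thus set replicate 2 apart from replicates 1 and 3. A sum follows its most abundant genes and need not stand for the whole list. The part of these cell types in the result was not tested.

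At 8 months 2 members were called higher in BKO non-tumour liver and 0 lower, against 5.42% higher and 2.98% lower of all genes, which is near the background. The difference was positive for 27 of 33 members and negative for 6, with a median of 0.29, against 0.0015 over all genes. Cenpa had 237, 90.1 and 184 normalised reads in BKO, against 63.7, 70.3 and 78.3 in WT, and Plk1 had 26.2, 6.21 and 5.33 in BKO, against 2.51, 2.40 and 0.842 in WT. Both were above WT in all 3 livers, at 0.95 ± 0.25 (adjusted p = 0.0177) and 0.70 ± 0.23 (adjusted p = 0.0489). Replicate 1 was the highest BKO liver for 26 of 33 members. The count was 4 without BKO replicate 2, 1 without BKO replicate 3 or WT replicate 2 or 3, and 0 without BKO replicate 1 or WT replicate 1. At 1 month 0 members were called in BKO (background 5.93%), with 5 at an unadjusted p under 0.05 by limma and 0 called by limma-voom, although replicate 3 was the highest of the BKO livers for 31 members. Mcm5 had 71.0, 106 and 243 there, against 55.8, 64.7 and 47.4 in WT, so that all 3 BKO livers were above WT. At 3 months 0 were called (background 2.33%), with 2 at an unadjusted p under 0.05 and 0 called by limma-voom. The difference was positive for 24 members at 1 month and 12 at 3 months, and negative for 9 and 21.

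Few members passed the test in IKO and MKO non-tumour liver. Over the 4 stages 0 members were called in IKO, against 4.05% higher and 5.28% lower of all genes, with 1 at an unadjusted p under 0.05 by limma and 0 called by limma-voom. Likewise 0 were called in MKO, against 2.30% higher and 1.70% lower of all genes, with 3 at an unadjusted p under 0.05 and 0 called by limma-voom. The difference was positive for 21 members in IKO and 22 in MKO, and negative for 12 and 11. The medians were 0.03 and 0.10, against 0.002 and 0.007 over all genes. Ccnd1 differed by -0.29 ± 0.16 (adjusted p = 0.257) in IKO and -0.28 ± 0.20 (adjusted p = 0.466) in MKO. Cenpa differed by 0.21 ± 0.11 (adjusted p = 0.26) in IKO, and Mcm7 by 0.07 ± 0.10 (adjusted p = 0.755) in MKO. Of the single stages, Top2a was lower in IKO at 1 month, with 42.2, 54.4, 38.9 and 25.9 normalised reads in IKO, against 57.4, 106, 117 and 76.7 in WT. The groups did not overlap, at -0.81 ± 0.26 (adjusted p = 0.0433), with 9.49% of all genes called, and the call was lost without IKO replicate 1, 3 or 4 or WT replicate 2 or 3. In IKO at 1 month 9 members had an unadjusted p under 0.05 by limma. The difference there was negative for 23 of 33 members and positive for 9, with a median of -0.21, against -0.002 over all genes. At 8 months Cenpa was higher in MKO non-tumour liver, with 169, 229 and 123 in MKO, against 63.7, 70.3 and 78.3 in WT. These did not overlap either, at 1.02 ± 0.25 (adjusted p = 0.0143), with 8.36% of all genes called, and the call was lost without MKO replicate 2 or WT replicate 1. BKO and MKO share these WT libraries. In MKO at 8 months the difference was positive for 29 of 33 members and negative for 4, with a median of 0.23, against 0.02 over all genes. In IKO 0 members were called at 3, 5 and 8 months, where 0.255%, 1.67% and 0.201% of all genes were called and 7, 2 and 4 members had an unadjusted p under 0.05 by limma. The IKO difference was positive for 23, 22 and 23 members at these stages and negative for 10, 11 and 9, with medians of 0.16, 0.10 and 0.08. In MKO 0 were called at 1, 3 and 5 months, where 0.401%, 0.0694% and 0.131% of all genes were called and 0, 2 and 2 members had an unadjusted p under 0.05, and limma-voom called 0 at each of these stages. The MKO difference was positive for 18 members and negative for 15 at each of them. Interactions with stage were called for 0 members in IKO (background 0.116%) and 0 in MKO (background 1.17%), by limma as by limma-voom, with 8 and 2 at an unadjusted p under 0.05. In IKO 1 was called without IKO 1-month replicate 1, WT 3-month replicate 1 or IKO 5-month replicate 1.

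The difference between 3 months and 1 month was negative for most members in 5 of the 6 sets, and few members passed the test. Between 3 and 1 month, 29 of 33 differences were negative in SKO, 24 in WT of group 1, 31 in BKO, 27 in MKO and 29 in WT of group 2, and 12 in IKO, and whether IKO differed from the others in this was not tested. The medians over all genes lay between -0.00968 and -0.00536 in the 6 sets. In SKO 5 members were called lower at 3 months and 0 higher (background 3.68% higher and 3.36% lower), among them Cdk1 at -0.91 ± 0.25 (adjusted p = 0.018) and Plk1 at -0.69 ± 0.19 (adjusted p = 0.0198). In WT of group 1 there were 3 lower and 0 higher (background 2.44% higher and 2.32% lower), among them Top2a, with 46.1, 12.7, 27.6 and 28.5 normalised reads at 3 months, against 57.4, 106, 117 and 76.7 at 1 month, which did not overlap, at -1.14 ± 0.26 (adjusted p = 0.00706). In IKO, BKO, MKO and WT of group 2, 0 members were called between these ages, where 5.83%, 0.255%, 1.40% and 0.201% of all genes were called and 2, 19, 5 and 7 members had an unadjusted p under 0.05 by limma. Limma-voom called 0 in these 4 as well, and limma called 1 without IKO 3-month replicate 1, 1 without BKO 1-month replicate 1 and 1 without MKO 1-month replicate 1. The SKO count was 0 without SKO 1-month replicate 1 or 3 or the library labelled SKO 3-month replicate 2, and 2 to 4 without any other, with 2 without SKO 3-month replicate 1 or 4 and 3 without replicate 3. The count in WT of group 1 was 1 without 1-month replicate 2 or 3 or 3-month replicate 3 or 4, and 2 to 4 without any other.

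Between 8 and 3 months, BKO non-tumour liver had 3 members called higher and 0 lower (background 4.38% higher and 3.73% lower). Ccnd1 had 763, 472 and 375 normalised reads at 8 months, against 161, 237 and 139 at 3 months, with no overlap, at 1.42 ± 0.41 (adjusted p = 0.0292). Ccnb2 rose by 0.96 ± 0.23 (adjusted p = 0.0101) and Plk1 by 0.88 ± 0.23 (adjusted p = 0.0159). The count was 0 without BKO 8-month replicate 1, 6 without replicate 2, and 2 without any 1 of the 3-month livers. MKO also had 3 higher and 0 lower (background 10.5% higher and 8.69% lower), namely Cenpa at 0.75 ± 0.25 (adjusted p = 0.0349), Prc1 at 0.81 ± 0.28 (adjusted p = 0.0388) and Stmn1 at 0.70 ± 0.24 (adjusted p = 0.0406), and none of these calls was left without any 1 of the MKO libraries except 8-month replicate 3. In group 1, Rrm1, the large subunit of ribonucleotide reductase, fell to 77.9, 95.3, 77.5 and 98.4 in IKO at 8 months, against 135, 187, 105 and 120.3 at 3 months, at -0.51 ± 0.14 (adjusted p = 0.0095). It likewise fell in SKO, at -0.65 ± 0.14 (adjusted p = 0.00059), and the ages did not overlap in either genotype. IKO also had Mcm7 at 0.45 ± 0.13 (adjusted p = 0.014) and Plk1 at 0.56 ± 0.19 (adjusted p = 0.0413) (background 14.4% either way, 21.7% in SKO), and its count of 3 was 1 without IKO 3-month replicate 1. The SKO count of 1 was 2 without the library labelled SKO 3-month replicate 2 and 3 without replicate 3. In WT of group 1, Mcm4 differed by -0.70 ± 0.18 (adjusted p = 0.00841) (background 11.8%), a call lost without 8-month replicate 3, and in WT of group 2 called were 0 members and 0.00% of all genes, with 1 member at an unadjusted p under 0.05 by limma and 0 called by limma-voom.

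Other genes of the cycle were taken from lists by role, and their tumour counts stand beside the shares of all genes called higher and lower, which were 22.0% and 18.8% in WT of group 1, 10.4% and 7.71% in WT of group 2, 20.1% and 18.1% in SKO, 17.1% and 14.1% in IKO, 2.78% and 1.47% in BKO and 3.85% and 2.38% in MKO. Of 39 other mitotic genes, 25 were called higher and 2 lower in WT tumours of group 1, 21 and 0 in WT of group 2, 10 and 2 in SKO, 7 and 2 in IKO, 1 and 0 in BKO and 0 in MKO, so that the share called higher was well above that of all genes in both WT sets and near it in SKO and IKO. Hmmr, a spindle protein, rose by 1.20 ± 0.21 (adjusted p = 6.21e-05) in WT tumours of group 1, and Cdkn3, a phosphatase of CDKs, by 1.45 ± 0.29 (adjusted p = 0.000312), while Pttg1, which encodes securin, fell by 1.005 ± 0.18 (adjusted p = 7.54e-05). Of 37 other replication genes, 15 were called higher and 3 lower in WT tumours of group 1, 8 and 2 in WT of group 2, 5 and 4 in SKO, 6 and 2 in IKO, 0 in BKO and 1 and 2 in MKO, so that the share called higher was above that of all genes in both WT sets, near it in IKO and below it in SKO. Cdc25a, the phosphatase that activates CDK2, rose by 1.14 ± 0.17 (adjusted p = 1.25e-05) in WT tumours of group 1. Mcm10, a replication initiation factor, fell to a mean of 131 normalised reads there, against 573 in WT non-tumour liver, at -2.01 ± 0.28 (adjusted p = 4.72e-06). It fell too in WT tumours of group 2, at -2.57 ± 0.46 (adjusted p = 0.00187), in SKO, at -1.79 ± 0.28 (adjusted p = 2.21e-05), and in MKO, at -1.64 ± 0.46 (adjusted p = 0.0463). Of 16 other cyclins, CDKs and factors, 3 were called higher and 1 lower in WT tumours of group 1 and 3 and 0 in WT of group 2, 3 and 2 in SKO, 1 and 1 in IKO and 0 in BKO and MKO, shares that in WT of group 1 and SKO were near those of all genes. Among them were Cdk6 at 1.01 ± 0.13 (adjusted p = 2.79e-06) and Cdk4, the partner of cyclin D1, at 0.79 ± 0.13 (adjusted p = 3.04e-05) in group 1.

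Among inhibitors of the cycle single genes rose in tumours. Of 21 CDK inhibitors and other brakes, 6 were called higher and 3 lower in WT tumours of group 1, 5 and 1 in WT of group 2, 5 and 5 in SKO, 3 and 1 in IKO, 3 and 1 in BKO and 5 and 0 in MKO, and the share called higher was near that of all genes in WT of group 1, SKO and IKO. Cdkn1a, which encodes p21, rose by 1.72 ± 0.37 (adjusted p = 0.000647) in WT of group 1, 2.28 ± 0.26 (adjusted p = 0.00012) in WT of group 2, 1.05 ± 0.26 (adjusted p = 0.0357) in BKO and 1.75 ± 0.26 (adjusted p = 0.00956) in MKO. Cdkn2b, which encodes p15, rose in all 6 sets, at 1.49 ± 0.28 (adjusted p = 0.000329) in IKO, 1.68 ± 0.28 (adjusted p = 5.2e-05) in SKO, 1.07 ± 0.26 (adjusted p = 0.0321) in BKO and 1.57 ± 0.26 (adjusted p = 0.0109) in MKO. Btg2, an antiproliferative target of p53, rose by 3.30 ± 0.24 (adjusted p = 2.57e-09) in WT of group 1 and by 2.66 ± 0.24 (adjusted p = 1.15e-07) in IKO. In non-tumour liver, BKO had 3 brakes called higher and 3 lower over the 4 stages, with Cdkn1a at 1.53 ± 0.17 (adjusted p = 5.38e-08) and Btg2 at 1.03 ± 0.14 (adjusted p = 2.81e-06), and SKO had 2 higher and 4 lower. SKO non-tumour liver had 11 other mitotic genes called higher and 2 lower and 7 other replication genes called higher and 1 lower, where 12.6% higher and 11.3% lower of all genes were called, among them Spc24, a kinetochore protein, at 0.46 ± 0.11 (adjusted p = 0.00143), E2f8, an atypical E2F repressor, at 0.84 ± 0.18 (adjusted p = 0.000669), and Pttg1 at -0.75 ± 0.11 (adjusted p = 2.66e-06). BKO non-tumour liver had 4 other mitotic genes called higher and 0 lower and 3 other replication genes called higher and 1 lower, shares near or under the 12.3% higher and 10.3% lower of all genes, among them Chaf1b, a subunit of chromatin assembly factor 1, at 0.50 ± 0.10 (adjusted p = 0.000286). In IKO 0 other mitotic genes were called higher and 2 lower over the 4 stages. Of all genes 4.05% were called higher and 5.28% lower in IKO, so the share called lower was near the background. In MKO 0 of either list were called over the 4 stages (background 2.30% higher and 1.70% lower).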

How the data were processed

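RNA sequencing of 105 DEN-treated mouse liver and tumour libraries was analysed from 1 table of 12966 genes. The authors deposited log2 values, and per the submitters' processing notes the tools included STAR 2.7.10a, HTSeq 2.0.2 and DESeq2 1.32.0 with build GRCm38 (mm10). The deposited log2 values have a floor of 3.82887, which stands for 0 reads, and inverting the scale gave whole reads (within 0.05) for 100.0% of values. Reads per library ran from 4676444 to 20231121, with a median of 8353515.

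Differences were fitted to the deposited log2 values with limma 3.58.1 (R 4.3.3, empirical Bayes with a trend), 1 mean per group, with Benjamini-Hochberg adjustment over all genes, and were tested on simulated data. The sequencing groups were fitted apart and not compared. Within each, non-tumour liver of all stages, tumours, and 8-month tumours with non-tumour liver were fitted apart. Figures used Python 3.11.15, pandas 2.3.3 and matplotlib 3.10.9. The labels number biological replicates but name no animals, so p-values measure the spread between libraries, which may be technical in part. No replicates were copies of 1 library (lowest chi-square per gene 6.003).

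Same-numbered libraries were checked for pairing by the correlation of their deviations from the group means. In 2 of 38 pairs of groups every correlation was over 0.1: BKO tumours with BKO non-tumour liver, and MKO with WT non-tumour liver at 8 months.

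The members and gene lists were chosen with earlier results of these data known. Named are up to 8 called members with the smallest adjusted p per comparison, or, where none was called, the 2 with the highest mean, and up to 3 called genes per list of other cell cycle genes. Values per library are given for the 6 members called most often and for Mki67 and Mcm5, and those of Ccna2 and Rrm1 were added after their values were seen. Further genes are named as chosen after their values were seen, or where a value bears on the same gene in another group. Alternatives were other normalization, filters, models, a replicate block, and leaving out each library or a stage. Limma-voom scaled reads by the library total and not by the size factor, so its counts also carry a change of normalization.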

Additional observations from a re-analysis of the deposited data

Results flagged for a closer look

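Of 135 groups of 4 libraries and single measures tested for a library far from the others, chance alone would mark about 1 in 20, and 10 were marked, which is near that share. In SKO 8-month non-tumour liver, replicate 4 stood above the other libraries in Cenpa (212 normalised reads), Ube2c (20.03), Cdk1 (28.9) and the summed level of the members other than Ccnd1 (1075). In SKO 3-month liver, replicate 2, the library whose Ptpn11 level was that of WT, stood below the others in Top2a (17.9) and Ube2c (5.50). Single libraries also stood apart for Cenpa in WT 1-month replicate 1 of group 1 (83.2, the lowest), for Top2a in IKO 8-month non-tumour replicate 2 (28.4, the lowest), for Mki67 in WT 8-month non-tumour replicate 4 of group 1 (14.8, the highest) and for the summed level in IKO 1-month replicate 2 (773, the highest). The effect of BKO on Ccnd1 differed between stages by limma's test of the interaction (adjusted p = 0.047).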

How the results depend on the processing

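No called value changed its direction under any alternative. The 132 called single values were refitted under each alternative. Summed over the alternatives other than leaving out a library, a call was kept 790 times and lost 97 times, and summed over the fits with 1 library left out it was kept 1073 times and lost 271 times. Counts of called members over alternatives are given with the reported count in parentheses, and causes were not tested.

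With the replicate number as a block, the count was 1 in SKO against WT at 8 months (0), 3 for SKO 3 against 1 month (5), 2 for SKO 8 against 3 months (1), 0 for the BKO interaction (1), 3 for BKO tumours against non-tumour liver (1) and 2 for MKO tumours against non-tumour liver (1), and the block changed no other count by over 1.5 times.

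With quantile normalization it was 0 in IKO at 1 month (1), 1 in SKO at 8 months (0), 3 for SKO 3 against 1 month (5), 2 for SKO 8 against 3 months (1), 1 in BKO at 8 months (2) and 1 for MKO 8 against 3 months (3). With limma-voom, which scaled by total reads and not by size factors, it was 20 in SKO over 4 stages (12), 0, 5 and 2 in SKO at 3, 5 and 8 months (2, 1 and 0), 2 for the SKO interaction (0), 1 for IKO 8 against 3 months (3), 13 for SKO 3 against 1 month (5), 3 for SKO 8 against 3 months (1), 2 in BKO over 4 stages (5), 4 and 1 in BKO at 5 and 8 months (7 and 2) and 0 for MKO 8 against 3 months (3). With only the groups compared in the fit it was 3, 0 and 2 in SKO at 1, 3 and 5 months (6, 2 and 1), 1 and 0 in BKO at 5 and 8 months (7 and 2), 0 in MKO at 8 months (1), and 0 for the BKO interaction (1), for BKO and MKO tumours against non-tumour liver (1 each), for IKO and BKO 8 against 3 months (3 each), for SKO and WT of group 1 at 3 against 1 month (5 and 3) and for WT of group 1 at 8 against 3 months (1). With genes of a mean of at least 5, which left 19 members, it was 1 in SKO at 3 months (2), 3 for SKO 3 against 1 month (5), 2 for SKO 8 against 3 months (1), 0 for WT of group 1 at 8 against 3 months (1), 1 in BKO at 8 months (2), 0 in BKO tumours (1) and 12 in WT tumours of group 2 (22), fewer members being tested. With all libraries of a sequencing group in 1 fit it was 4 and 1 in BKO at 5 and 8 months (7 and 2), 2 in MKO against WT tumours (0), 6 in BKO tumours (1) and 2 in MKO tumours (1), and without the trend it was 0 for the BKO interaction (1). In 2 alternatives chosen after seeing the data, it was 5 in SKO over the stages without 1 month (12) and 0 in BKO without 5 months (5).

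Leaving out 1 library gave 0 to 1 in IKO at 1 month, SKO at 8 months, MKO at 8 months, the IKO and SKO interactions, MKO tumours, IKO, BKO and MKO 3 against 1 month and WT of group 1 at 8 against 3 months. It gave 1 to 6 and 0 to 4 in SKO at 1 and 3 months, 11 to 21 in SKO tumours, 0 to 11 in BKO tumours, 4 to 13 in BKO over 4 stages, 0 to 13 and 0 to 4 in BKO at 5 and 8 months and 0 to 5 for the BKO interaction. Between ages it gave 0 to 4 for SKO and 1 to 4 for WT of group 1 at 3 against 1 month, and 1 to 3 for IKO, 1 to 3 for SKO, 0 to 6 for BKO and 0 to 3 for MKO at 8 against 3 months. Depth is a further limit, since 16 of 33 in group 1 and 12 of 33 in group 2 had a median under 10 reads.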
